A study of Mus musculus with 8 samples.

Results

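Transcripts of the IL-6 receptor family, of STAT3 and of 6 genes that STAT3 signalling is known to control were followed in the hearts of mice bearing a Lewis lung carcinoma (LLC1) tumor. The 10 genes were taken by symbol from the 43346 genes of the count table: Il6ra, Il6st, Osmr, Stat3, Socs3, Cebpd, Cebpb, Lcn2, Serpina3n and Bcl3. Each symbol matched 1 gene, and all 10 were among the 16111 genes left by edgeR's filterByExpr, which drops genes with few counts. Male C57BL/6 mice aged 7 weeks received 1000000 LLC1 cells under the skin of the left flank (4 mice) or the same injection of phosphate-buffered saline, PBS (4 mice). LLC1 is a transplantable line from a mouse lung carcinoma of the same strain. Cardiac ventricle was taken 14 days later, and reads per gene were counted from mRNA libraries. Mice are named by injection and by the code in their label, such as PBS 1-1. The labels do not say what the code stands for.

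Interleukin-6, interleukin-11, oncostatin M and their relatives act through complexes of more ligand-specific receptor chains with the shared chain gp130, encoded by Il6st. Kinases of the JAK family bound to the receptors phosphorylate STAT3, which enters the nucleus and switches on genes such as Socs3, the feedback inhibitor of the pathway. In the heart gp130 is known for its part in cardiomyocyte survival and growth, and in the liver the same pathway drives the acute-phase response to inflammation and tumors.

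Libraries held between 15342214 and 19747596 counts in LLC1 mice and between 12480706 and 16192158 in PBS mice. Levels are given as CPM, counts per 1000000 counts, after TMM scaling of the libraries, and FDR stands for the Benjamini-Hochberg adjusted p of edgeR's quasi-likelihood test over the 16111 genes. PBS 1-1 stood apart from the other mice on the second principal component of log2 CPM, which held 25.2% of the variance (score 35.3, the other mice between -23.3 and 8.71). The tissue label was checked with 9 cardiomyocyte markers and 4 atrial markers. The cardiomyocyte markers summed to between 113962 and 122701 CPM in LLC1 mice and between 104541 and 106692 CPM in PBS mice, without overlap. The atrial markers summed to between 2.02 and 4.41 CPM over all mice. In whole ventricle, fewer cells of a type and less RNA per cell cannot be told apart.

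Osmr, Cebpd and Lcn2 rose in tumor-bearing mice, by 1.59-fold, 1.82-fold and 1.98-fold, and no gene of the 10 fell. These 3 of 10 genes (30.0%) had an FDR under 0.05, against 8.73% of all genes tested (4.12% higher and 4.61% lower). Serpina3n, Cebpb and Stat3 had FDRs between 0.0702 and 0.0917 in the same edgeR test, and Socs3, Il6st, Il6ra and Bcl3 between 0.202 and 0.927. The LLC1 and PBS mice did not overlap for Osmr and Lcn2, 2 of 10 genes and so a share close to the 17.2% of all genes tested. An unadjusted p under 0.05 was found for 6 of the 10 genes, against 25.5% of all genes. The median log2 fold change was 0.43 over the 10 genes and -0.01 over all genes tested. The 10 genes were chosen with earlier results of these data known, so these comparisons with all genes are no test. All 10 log2 fold changes were above 0, as were those of 7724 of the 16111 genes, but that of Bcl3 turned negative when libraries were scaled by total counts alone.

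**Figure D1:**
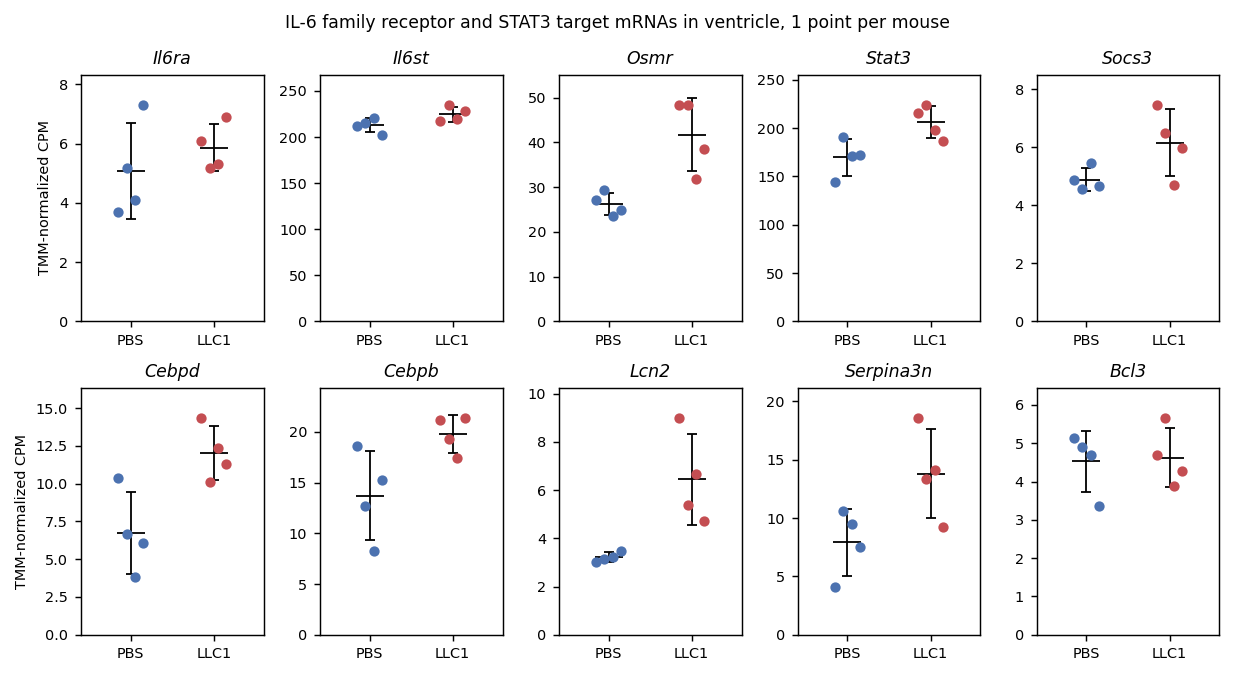
TMM-normalized CPM (y axes, from 0) of each of the 10 mRNAs in the 4 PBS and 4 LLC1 mice, with 1 point per mouse and bars for mean and SD (n = 4). The groups are separate for Osmr and Lcn2, while the Il6st points of both groups lie between 202 and 235 CPM.

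**Figure D2:**
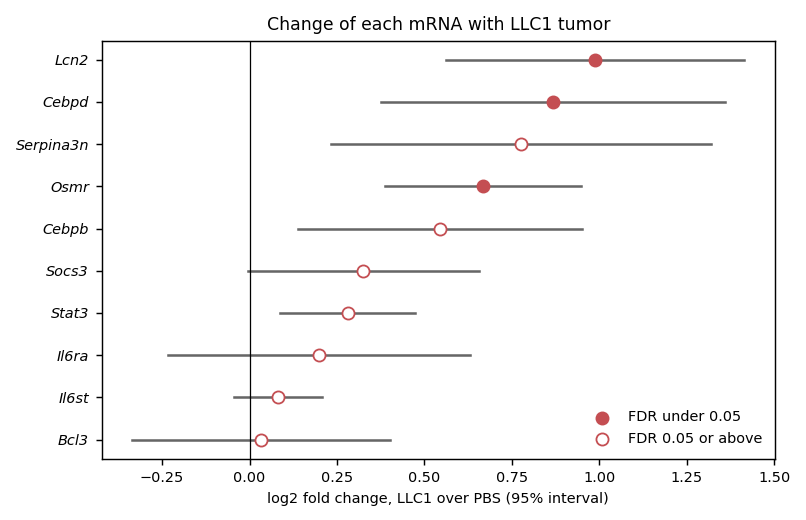
Log2 fold change of LLC1 over PBS mice (x axis) for each mRNA, with its 95% interval from edgeR's quasi-likelihood fit (4 mice a group). Filled points have an FDR under 0.05: Lcn2 at 0.99, Cebpd at 0.87 and Osmr at 0.67.

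The calls on Cebpd, Cebpb, Stat3 and Serpina3n depended on the tool, the filter or single mice. DESeq2 called 6 of the 10 (10.5% of its genes called), as did edgeR without the filter on low counts (5.53% called), and both added Stat3, Cebpb and Serpina3n. Without PBS 1-1, 4 of the 10 were called, Cebpb being added (11.9% of genes called). Without any other single mouse 2 were called, Osmr and Lcn2, and Cebpd was lost. These 7 fits called 4.59%, 3.88%, 4.36% and 5.11% of all genes without LLC1 1-2, 1-3, 1-5 and 2-2, and 3.32%, 5.88% and 10.1% without PBS 1-3, 2-1 and 2-5. Stat3 and Serpina3n were called in none of these 8 fits. The 663 higher and 743 lower calls over all genes shifted to 225 higher among 1016 with total-count scaling, under which the same number of the 10 genes, 3, was called.

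In PBS mice the levels per kilobase of the listed gene length ran from 19.2 CPM per kb for Il6st and 17.8 for Stat3 down to 1.23 for Lcn2. Cebpb (9.11), Cebpd (5.70), Serpina3n (3.84), Osmr (2.17), Bcl3 (1.82), Socs3 (1.69) and Il6ra (1.52 CPM per kb) lay between. Il6st and Stat3 overlapped each other and were separate from the other genes. From Cebpb downwards each gene's range over the 4 PBS mice overlapped that of the next. The file lists Il6ra with 3343 bases and Cebpd with 1180 bases, where GENCODE M21 gives them 8642 and 3746 exon bases, so the per-kilobase levels of these genes rest on part of the annotated transcript.

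Of the 3 receptor genes, Osmr passed the test and Il6st and Il6ra did not. Osmr (ENSMUSG00000022146, chromosome 15, 6813577 to 6874969, mm10, minus strand) encodes the chain that pairs with gp130 to bind oncostatin M. Its level was 48.3, 48.4, 31.8 and 38.5 CPM in LLC1 1-2, 1-3, 1-5 and 2-2 and 27.2, 29.3, 23.6 and 25.0 CPM in PBS 1-1, 1-3, 2-1 and 2-5. Every LLC1 mouse was above every PBS mouse, and LLC1 1-2 and 1-3 were the highest. The means were 41.8 ± 8.07 CPM against 26.3 ± 2.49 CPM (SD, n = 4 each), and the log2 fold change was 0.67 (SE 0.13, 95% interval 0.39 to 0.95, FDR = 0.0104 in edgeR's quasi-likelihood test). The exact permutation test of the 70 arrangements of the mice gave p = 0.0286 (2-sided), the smallest it can give. The call held in all 8 fits that left out 1 mouse, with log2 fold changes of 0.59 to 0.78.

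The Osmr start region is shown because it is the receptor gene that moved. These are the 250 bases before and 50 bases after the RefSeq start site (GRCm38.p6, chr15:6874264-6874563, minus strand, written 5′ to 3′). The window lies inside the listed span of the gene, whose 5′ end is at 6874969, so the bases around that end were not searched. It holds no match, on either strand, to the letters TTCNNNGAA that STAT factors favour or TTGCNNAA that C/EBP factors favour, so nothing is in capitals.
Osmr promoter: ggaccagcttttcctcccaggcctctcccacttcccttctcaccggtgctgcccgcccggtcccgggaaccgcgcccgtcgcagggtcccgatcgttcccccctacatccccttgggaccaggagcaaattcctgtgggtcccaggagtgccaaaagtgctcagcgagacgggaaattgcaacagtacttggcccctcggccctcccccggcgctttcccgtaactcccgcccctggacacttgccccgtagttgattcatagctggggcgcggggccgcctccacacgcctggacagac

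Il6st (ENSMUSG00000021756, chromosome 13, 112464070 to 112510086) encodes gp130, the chain shared by the whole family. It was the steadiest of the 10 genes, with 217, 235, 219 and 228 CPM in the LLC1 mice and 212, 215, 221 and 202 CPM in the PBS mice, in the order given above. LLC1 1-3 and 2-2 lay above all PBS mice, and the groups overlapped. The means were 225 ± 8.22 CPM and 213 ± 7.66 CPM (SD, n = 4), and the log2 fold change of 0.08 had a 95% interval of -0.05 to 0.21 (SE 0.06, FDR = 0.415 in edgeR's test).

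Il6ra (ENSMUSG00000027947, chromosome 3, 89869324 to 89913162) encodes the receptor chain that binds interleukin-6 itself. It was a low transcript, at 6.08, 5.19, 5.30 and 6.88 CPM in LLC1 mice and 3.68, 5.18, 4.11 and 7.31 CPM in PBS mice. The highest mouse of all was PBS 2-5 and the lowest PBS 1-1, so the LLC1 mice lay within the range of the PBS mice. The log2 fold change was 0.20 (SE 0.20, 95% interval -0.23 to 0.63, FDR = 0.570 in edgeR's test). An antisense gene, Gm42809, which was not analysed here, overlaps 6.22% of its listed length.

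Set against Il6st within each mouse, a measure that does not depend on how libraries are scaled, Osmr per kilobase was 20.4%, 18.9%, 13.3% and 15.5% of Il6st in LLC1 mice and 11.8%, 12.5%, 9.81% and 11.3% in PBS mice. The groups did not overlap, and the ratio was 1.49-fold higher with tumor (exact permutation test, p = 0.0286, higher in 4 of 4 mice). Because Il6st hardly differed between the groups, this ratio largely repeats the Osmr values and is not a separate result. It was 1 of 4 such ratios, taken up after the values had been seen, and with adjustment over the 4 its p from the exact test was 0.114. With 4 mice a group a single separated ratio cannot go lower than this, so the adjusted p could not pass 0.05. The ratio to Il6st was 8.67% ± 1.21 against 7.98% ± 2.84 for Il6ra (exact permutation test, p = 0.571, n = 4) and 34.4% ± 2.82 against 35.6% ± 3.80 for Lifr, the receptor for leukemia inhibitory factor (exact permutation test, p = 0.543, n = 4). For Il11ra1, which binds interleukin-11, it was 85.7% ± 6.49 against 74.6% ± 7.32 (exact permutation test, p = 0.0857, n = 4).

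Of 7 further receptor and sheddase genes, 6 were tested, of which 1 was higher and 1 lower. Il11ra1 was 77.5 ± 3.19 CPM in LLC1 mice and 63.7 ± 4.12 CPM in PBS mice (SD, n = 4), with no overlap between groups and a log2 fold change of 0.28 (SE 0.07, FDR = 0.0222 in edgeR's test). Adam10, which encodes a membrane protease able to shed receptor ectodomains, fell from 55.4 ± 3.68 to 40.9 ± 1.67 CPM, again without overlap (log2 fold change -0.44, SE 0.07, FDR = 0.00395 in edgeR's test). The related sheddase gene Adam17 had a log2 fold change of -0.23 (FDR = 0.0527), and Il27ra, which encodes the receptor chain for interleukin-27, one of -0.40 (FDR = 0.187), both in edgeR's test.

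The ligands of the family were scarce in the ventricle. Of 9 ligand genes, 2 passed the filter and neither was called. Il6 had at most 1 count in any mouse and Il11 at most 4. Osm, which encodes the ligand of Osmr, had at most 6 counts, and Lif at most 26. Ctf1, which encodes cardiotrophin-1, was the most abundant at 4.91 CPM in LLC1 mice and 3.997 CPM in PBS mice (log2 fold change 0.31, SE 0.14, FDR = 0.207 in edgeR's test). Clcf1, a cytokine that acts through the receptor for ciliary neurotrophic factor, had 3.11 and 2.91 CPM (log2 fold change 0.07, FDR = 0.880 in edgeR's test). Neither Il6 nor Osm passed the filter, so a change in them was not tested, and counts this low could not show a small one.

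Stat3 (ENSMUSG00000004040, chromosome 11, 100885098 to 100939540) encodes the transcription factor on which the receptors converge. Its level was 216, 224, 199 and 186 CPM in LLC1 mice and 144, 191, 171 and 172 CPM in PBS mice. LLC1 1-2, 1-3 and 1-5 were above every PBS mouse, LLC1 2-2 was below PBS 1-3, and PBS 1-1 was the lowest. The means were 206 ± 16.9 CPM and 170 ± 19.3 CPM (SD, n = 4), with a log2 fold change of 0.28 (SE 0.09, 95% interval 0.09 to 0.47, FDR = 0.0702 in edgeR's test). The interval excludes 0, but the FDR missed the threshold. It passed with DESeq2 (FDR = 0.0318) and with edgeR without the filter (FDR = 0.0377). Of its listed exon bases, 0.756% also lie in the neighbouring Stat5a on the opposite strand.

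None of the 9 other JAK and STAT genes tested was called by edgeR, of 10 listed, and their median log2 fold change was 0.01. The lowest FDR was that of Jak3, a kinase of lymphoid cells, at 47.9 CPM in LLC1 and 36.8 CPM in PBS mice (log2 fold change 0.38, FDR = 0.0700 in edgeR's test). Stat5a, the next lowest, had 33.1 and 29.4 CPM (log2 fold change 0.17, SE 0.11, FDR = 0.346 in edgeR's test).

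Socs3 (ENSMUSG00000053113, chromosome 11, 117966079 to 117970047) encodes the inhibitor that STAT3 induces and that binds gp130 to stop the signal. It was low, at 7.46, 6.51, 4.70 and 5.98 CPM in LLC1 mice and 4.88, 4.55, 5.47 and 4.66 CPM in PBS mice. LLC1 1-2, 1-3 and 2-2 were above all PBS mice, while LLC1 1-5 lay among them. The means were 6.16 ± 1.15 CPM and 4.89 ± 0.409 CPM (SD, n = 4), and the log2 fold change of 0.33 was not called (SE 0.15, FDR = 0.202 in edgeR's test). Leaving out single mice moved it between 0.22 and 0.44, with no call in any of the 8 fits.

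The Socs3 start region is shown because it alone of the 9 windows held the STAT letters TTCNNNGAA, which occur in 8.30% of the 32851 RefSeq windows of this kind (chr11:117969317-117969616, GRCm38.p6, minus strand, written 5′ to 3′). The match, TTCTTAGAA, is in capitals and begins 154 bases before the start site. A match describes the letters only and is not evidence of binding. Like the Osmr window, the Socs3 window lies inside the listed span of its gene and does not reach the listed 5′ end.
Socs3 promoter: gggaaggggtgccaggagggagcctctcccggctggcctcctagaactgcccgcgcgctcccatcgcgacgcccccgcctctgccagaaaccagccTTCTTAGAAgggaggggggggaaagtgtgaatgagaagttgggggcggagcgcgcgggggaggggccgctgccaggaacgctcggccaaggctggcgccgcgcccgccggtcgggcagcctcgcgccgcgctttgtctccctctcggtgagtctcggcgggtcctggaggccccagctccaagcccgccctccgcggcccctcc

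Of 15 other inhibitors of JAK and STAT signalling, 14 were tested, none was higher and 1 was lower. The lower one was Socs4, a relative of Socs3, at 19.7 ± 0.484 CPM in LLC1 and 25.6 ± 3.33 CPM in PBS mice (log2 fold change -0.37, SE 0.09, FDR = 0.0305 in edgeR's test). The median log2 fold change of the 14 was -0.04.

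Cebpd and Cebpb encode transcription factors of the C/EBP family that act downstream of STAT3 in the acute-phase response. Cebpd (ENSMUSG00000071637, chromosome 16, 15887286 to 15888466) was 14.3, 10.1, 12.3 and 11.3 CPM in LLC1 mice and 10.4, 6.65, 3.82 and 6.07 CPM in PBS mice. LLC1 1-2, 1-5 and 2-2 were above every PBS mouse, but PBS 1-1 lay just above LLC1 1-3, so the groups overlapped. The means were 12.03 ± 1.79 CPM and 6.73 ± 2.72 CPM (SD, n = 4), and the log2 fold change was 0.87 (SE 0.23, 95% interval 0.38 to 1.36, FDR = 0.0350 in edgeR's test). The exact permutation test gave p = 0.0571. The call was made in 1 of the 8 fits that left out a mouse, the one without PBS 1-1 (log2 fold change 1.13, FDR = 0.00180 in edgeR's test). In the fits without any other single mouse the FDR ran from 0.0593 to 0.0975 and the log2 fold change from 0.66 to 0.94. It was called by all 7 other settings tried with all 8 mice. The deposited table names Cebpd a pseudogene, while GENCODE M21 lists the gene as protein-coding.

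Cebpb (ENSMUSG00000056501, chromosome 2, 167688915 to 167690418) was 21.1, 19.3, 17.4 and 21.4 CPM in LLC1 mice and 18.6, 12.7, 8.23 and 15.3 CPM in PBS mice. As for Cebpd, PBS 1-1 was the highest PBS mouse and PBS 2-1 the lowest, and LLC1 1-5 lay below PBS 1-1. The means were 19.8 ± 1.84 CPM and 13.7 ± 4.37 CPM (SD, n = 4), and the log2 fold change of 0.54 missed the threshold (SE 0.19, 95% interval 0.14 to 0.95, FDR = 0.0917 in edgeR's test). It was called without PBS 1-1 (log2 fold change 0.71, FDR = 0.0133, edgeR), with DESeq2 (FDR = 0.0446) and without the filter (FDR = 0.0284). The 312 bases that Cebpb shares with Tmem189 on the opposite strand are 20.7% of its exons. The library kit does not mark strand, so reads there cannot be assigned. Tmem189 itself was 46.8 CPM in LLC1 and 40.2 CPM in PBS mice (log2 fold change 0.21, FDR = 0.153 in edgeR's test).

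Over the 8 mice, Cebpd and Cebpb were each other's nearest of the 10 genes, with a root mean square difference of 0.25 between their log2 CPM after centring. Their own spreads about the mean were 0.59 and 0.43 on the same scale. Irx5, a homeobox factor of the heart, was among the 2 genes nearest to each of them over all genes tested, at 0.21 from Cebpd and 0.18 from Cebpb. These distances describe 8 libraries and carry no test. Of the other C/EBP family genes, 4 of 5 were tested and none was called by edgeR, the lowest FDRs being those of Cebpg (log2 fold change -0.31, FDR = 0.0588) and Cebpz (log2 fold change -0.08, FDR = 0.594).

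**Figure D3:**
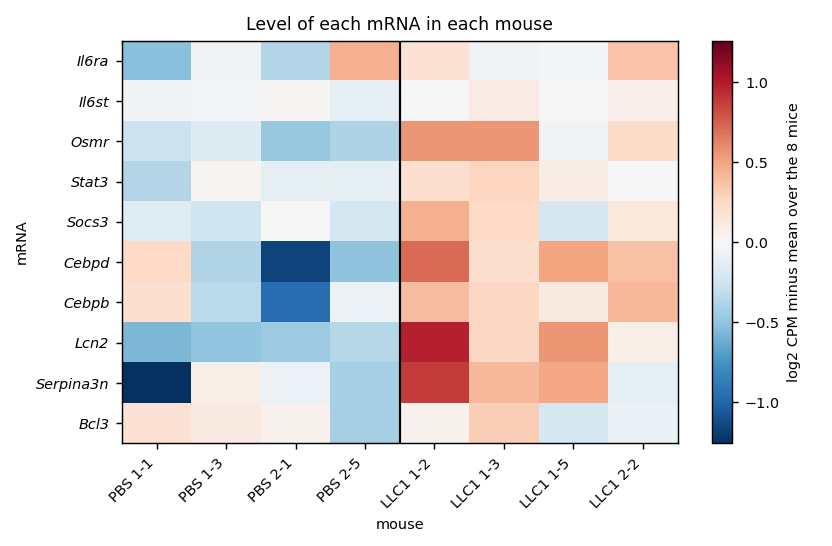
Log2 CPM of each mRNA in each mouse minus its mean over the 8 mice (color, in log2 units), with PBS mice on the left and LLC1 mice on the right of the line. PBS 1-1 is far below the other mice for Serpina3n but close to the other PBS mice for Lcn2. It is the highest PBS mouse for Cebpd and Cebpb, for which PBS 2-1 is the lowest.

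With all 8 mice, edgeR gave Lcn2 the largest fold change of the 10, whereas Cebpd was ahead with limma-voom (log2 fold change 0.96 against 0.93) and without PBS 1-1 (1.13 against 0.96). Lcn2 (ENSMUSG00000026822, chromosome 2, 32384633 to 32388252, minus strand) encodes lipocalin-2, a secreted protein that binds bacterial iron carriers and is a known target of STAT3, C/EBP and NF-kappaB factors. It was 8.98, 5.39, 6.66 and 4.72 CPM in LLC1 mice (82 to 136 counts) and 3.00, 3.15, 3.23 and 3.48 CPM in PBS mice (35 to 59 counts). Every LLC1 mouse was above every PBS mouse. The LLC1 mice varied more, with an SD of 29.1% of the mean against 6.23% in PBS mice. The means were 6.44 ± 1.88 CPM and 3.21 ± 0.200 CPM (SD, n = 4), and the log2 fold change was 0.99 (SE 0.20, 95% interval 0.56 to 1.41, FDR = 0.0118 in edgeR's test). The exact permutation test gave p = 0.0286, its smallest value. All 8 fits without 1 mouse called it, with log2 fold changes of 0.79 to 1.11 and FDRs of 0.0105 to 0.0431 in edgeR's test.

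The Lcn2 start region is shown because it alone of the 9 windows held the C/EBP letters TTGCNNAA, found in 10.8% of all windows (chr2:32387690-32387989, GRCm38.p6, minus strand, written 5′ to 3′). The match, TTGCTCAA, in capitals, begins 216 bases before the start site. Neither these letters nor those for STAT were in the windows of Il6ra, Il6st, Osmr, Stat3, Cebpb, Serpina3n or Bcl3, and no window of the 9 held the cAMP response element TGACGTCA (1.79% of all windows). Both strands were searched, and a match describes letters only. The Lcn2 window also lies inside the listed span of its gene and does not reach the listed 5′ end.
Lcn2 promoter: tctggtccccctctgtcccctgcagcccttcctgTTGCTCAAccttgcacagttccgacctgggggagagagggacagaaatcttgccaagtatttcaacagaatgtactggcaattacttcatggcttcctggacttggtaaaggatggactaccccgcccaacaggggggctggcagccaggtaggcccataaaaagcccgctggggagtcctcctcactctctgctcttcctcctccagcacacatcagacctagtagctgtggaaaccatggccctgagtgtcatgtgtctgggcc

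Neutrophils also make lipocalin-2, and their markers were low in all libraries. Of 13 neutrophil markers 4 passed the filter, and 2 were higher in LLC1 mice. S100a9, a calcium-binding protein of myeloid cells, was 1.13 ± 0.244 CPM against 0.352 ± 0.167 CPM (SD, n = 4; log2 fold change 1.72, SE 0.33, FDR = 0.0109 in edgeR's test). Its partner S100a8 was 0.887 ± 0.243 against 0.279 ± 0.227 CPM (log2 fold change 1.76, SE 0.45, FDR = 0.0337 in edgeR's test). The 13 markers summed to between 4.57 and 7.89 CPM in LLC1 and between 1.77 and 4.27 CPM in PBS mice. The granule genes Camp, Ngp, Ltf and Mpo had at most 3 counts in any mouse, Ly6g at most 1, and Elane was at 0. The other untested markers, Retnlg, Cxcr2 and Mmp8, had at most 4, 8 and 3 counts, with mean levels of 0.0952, 0.256 and 0.132 CPM in LLC1 and 0.0802, 0.0643 and 0.0214 CPM in PBS mice. The part of these cells in the Lcn2 result was not tested.

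Serpina3n (ENSMUSG00000021091, chromosome 12, 104406729 to 104414329) encodes a secreted serine protease inhibitor of the acute phase. It was 18.6, 13.3, 14.1 and 9.24 CPM in LLC1 mice and 4.11, 10.6, 9.52 and 7.49 CPM in PBS mice. LLC1 1-2, 1-3 and 1-5 were above every PBS mouse, LLC1 2-2 was within the PBS range, and PBS 1-1 was far below the rest. The means were 13.8 ± 3.82 CPM and 7.92 ± 2.84 CPM (SD, n = 4), with a log2 fold change of 0.78 that missed the threshold (SE 0.25, 95% interval 0.23 to 1.32, FDR = 0.0741 in edgeR's test). It passed with DESeq2 (FDR = 0.0186) and without the filter (FDR = 0.0171), and in none of the 8 fits that left out a mouse. The difference of mean log2 CPM was 1.18 among mice whose code begins with 1 (3 LLC1, 2 PBS) and 0.13 among those whose code begins with 2 (1 LLC1, 2 PBS). For Lcn2 these values were 1.13 and 0.48, for Cebpd 0.54 and 1.21, for Osmr 0.57 and 0.66, and Bcl3 alone changed sign, at -0.10 and 0.10.

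The Serpina3 genes next to Serpina3n were barely detected. Of 10 of them 1, Serpina3c, was tested, with at most 17 counts in a mouse (log2 fold change 0.29, FDR = 0.650 in edgeR's test). No other annotated transcript was at least 90% identical to Serpina3n over 150 bases. Slc22a17, which encodes a receptor for lipocalin-2, was 3.48 CPM in LLC1 and 3.44 CPM in PBS mice (log2 fold change 0.01, FDR = 0.977 in edgeR's test).

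Bcl3 (ENSMUSG00000053175, chromosome 7, 19808462 to 19822770) encodes a nuclear protein of the IkappaB family that modifies NF-kappaB p50 and p52 dimers. It was 4.69, 5.65, 3.88 and 4.27 CPM in LLC1 mice and 5.14, 4.90, 4.70 and 3.36 CPM in PBS mice, and the groups were mixed throughout. The log2 fold change was 0.03 (SE 0.17, 95% interval -0.34 to 0.40, FDR = 0.927 in edgeR's test). Among 10 other NF-kappaB and IkappaB genes, 9 were tested, 1 was higher and none lower. The higher one was Nfkbib, an inhibitor of NF-kappaB, at 19.5 ± 0.811 CPM against 14.6 ± 1.201 CPM (SD, n = 4; log2 fold change 0.42, SE 0.08, FDR = 0.0121 in edgeR's test). Nfkbia, the classical inhibitor, had a log2 fold change of 0.37 and an FDR of 0.0516 in the same edgeR test.

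Calls went in both directions among 33 further STAT3-responsive and acute-phase genes. Of 25 tested, 2 were higher and 3 lower, and the median log2 fold change was -0.03. Lrg1, which encodes a secreted leucine-rich glycoprotein of the acute phase, was 58.9, 50.4, 50.8 and 48.0 CPM in LLC1 mice and 30.6, 27.1, 27.3 and 25.1 CPM in PBS mice. The groups were well apart (log2 fold change 0.92, SE 0.08, FDR = 0.000349 in edgeR's test). Pim3, a survival kinase gene, rose from 77.1 ± 17.0 to 124 ± 5.77 CPM (log2 fold change 0.68, SE 0.12, FDR = 0.00735 in edgeR's test).

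Ccl2, a chemokine gene that draws monocytes, fell from 3.93 ± 2.26 to 0.880 ± 0.264 CPM (log2 fold change -2.09, SE 0.42, FDR = 0.0129 in edgeR's test). Icam1, an adhesion receptor gene, had 12.99 ± 2.10 CPM in LLC1 and 20.5 ± 5.58 CPM in PBS mice (log2 fold change -0.66, SE 0.18, FDR = 0.0387 in edgeR's test). The fifth gene of the list past the threshold was Cd14, a receptor for bacterial lipopolysaccharide, named after its values were seen (log2 fold change -0.54, SE 0.15, FDR = 0.0453 in edgeR's test). The hepatic acute-phase genes Saa1, Saa2, Fga, Fgb and Fgg were at 0 in all 8 mice. Over the 9 lists of related genes together, 6 of 82 genes tested were higher and 5 lower (13.4% called, against 8.73% of all genes tested). The lower genes Ccl2, Icam1 and Cd14 are expressed in stromal or myeloid cells, whose markers also differed. Of 8 fibroblast markers 5 fell, their sum being 987 to 1097 CPM in LLC1 and 1113 to 1611 CPM in PBS mice. Of 7 endothelial markers 3 fell, with sums of 741 to 861 and 847 to 1122 CPM. Of 10 macrophage or monocyte markers, 1 rose and 3 fell, with sums of 322 to 400 and 330 to 473 CPM. No marker of these 3 lists was at 0 in every mouse, and their part in the results was not tested.

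**Figure D4:**
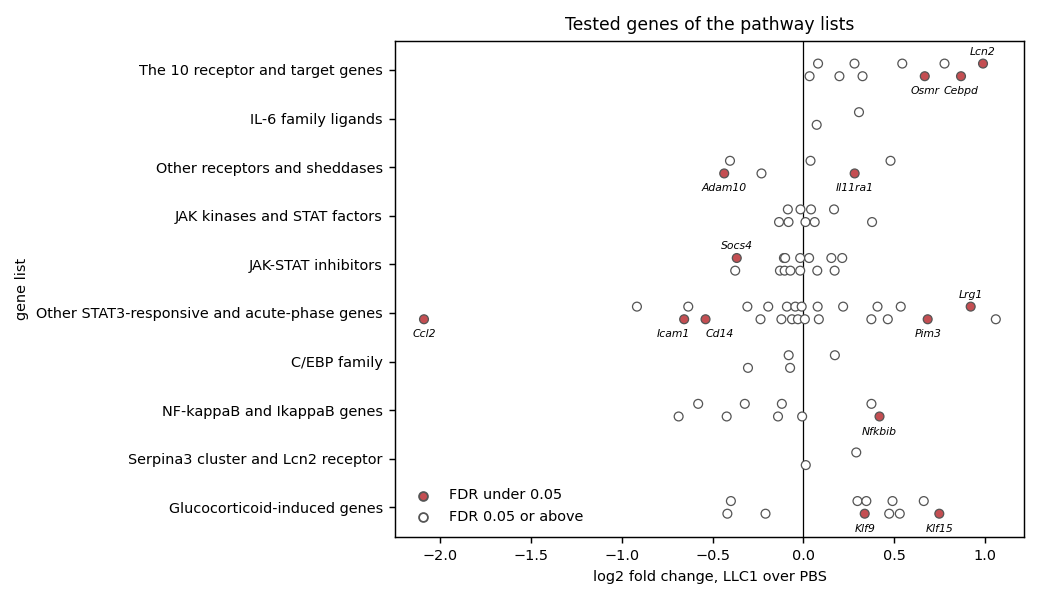
Log2 fold change of LLC1 over PBS mice (x axis) for every tested gene of each list (y axis), with 1 point per gene, filled where the FDR of edgeR's test is under 0.05. The 10 receptor and target genes lie at or above 0.03, while the 25 further STAT3-responsive genes run on both sides of 0, from Ccl2 at -2.09 to Lrg1 at 0.92 among those called.

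The genes whose profile over the 8 mice was nearest to that of Osmr, by the same root mean square measure, were Eif5al3-ps at 0.13 and 2900089D17Rik at 0.13, against 0.38 for the spread of Osmr itself. For Lcn2 they were Gm3839 at 0.16 and Gnmt, which encodes glycine N-methyltransferase, at 0.17 (own spread 0.53). Of the 10 genes, the nearest to Lcn2 was Osmr at 0.33, and the nearest to Osmr was Socs3 at 0.23. LLC1 1-2 and LLC1 1-3 each held the highest level of 4 of the 10 genes. PBS 1-1 held the lowest level of 4 (Il6ra, Lcn2, Serpina3n and Stat3) and PBS 2-1 of 3 (Cebpb, Cebpd and Osmr).

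**Figure D5:**
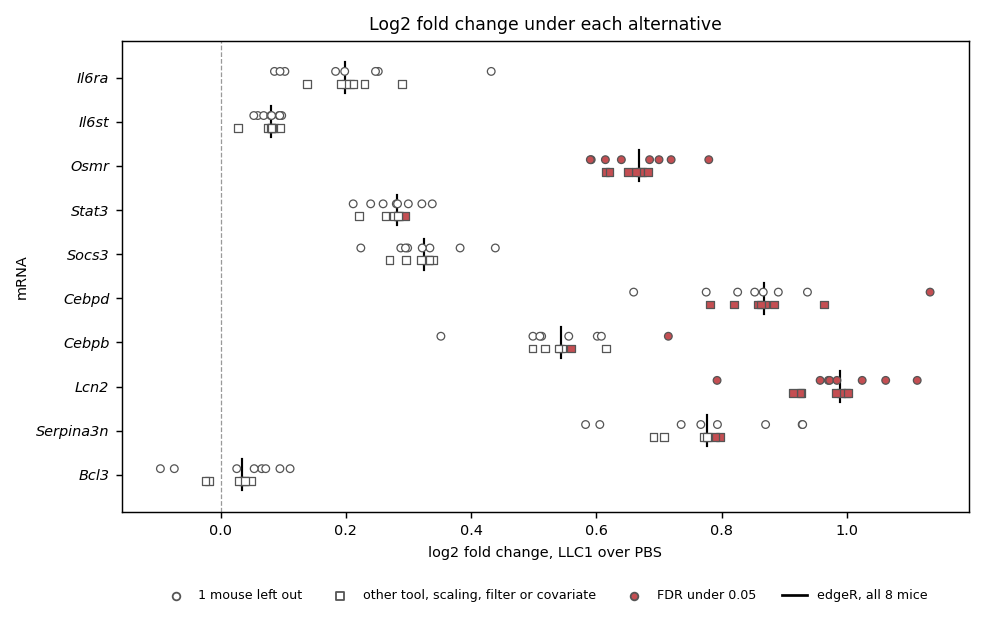
Log2 fold change (x axis) of each mRNA with all 8 mice (vertical bar), with each mouse left out in turn (circles) and under the other tools, scalings, filters or covariate (squares), filled where the FDR is under 0.05. Osmr and Lcn2 are filled throughout, Cebpd in all 7 squares but in 1 of 8 circles, and Bcl3 lies on both sides of 0.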

How the data were processed

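Ventricular mRNA of 4 LLC1 and 4 PBS mice was sequenced as 150-base paired-end reads from TruSeq v2 libraries. The authors deposited raw counts of reads per gene, without normalization, with a gene length in bases; the submitters' processing notes name CASAVA, STAR, featureCounts and mm10. Versions, annotation and strand setting are not given in the sources used here. All 43346 genes were read, of which 15963 were at 0 in every mouse.

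Counts were filtered with filterByExpr, scaled by TMM and tested with edgeR 4.0.16 (R 4.3.3) by the quasi-likelihood F-test, with Benjamini-Hochberg adjustment over 16111 genes (common biological coefficient of variation 0.109) and a threshold of 0.05. The SE is the absolute log2 fold change divided by the square root of F. Exact permutation tests are 2-sided over 70 arrangements. Log2 CPM used a prior count of 2. No library repeated another within sampling noise. The labels do not say more of the mice than their injection, so p-values measure the spread between these samples.

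The 10 genes, the gene lists and the marker lists were chosen with earlier results of these data known. All 10 were named, and from each list up to 4 genes of lowest FDR, ligands by level. Lifr (in the ratios to Il6st), Cd14, the scarce ligands Il6, Il11 and Osm, and the untested neutrophil markers and acute-phase genes that the text names fall outside this rule and were chosen after their values were seen. The same holds for Dusp1, Sgk1 and Nr3c1. Lists counted were ligands, receptors and sheddases, JAK and STAT genes, inhibitors, STAT3-responsive genes, C/EBP, NF-kappaB, the Serpina3 cluster, glucocorticoid-induced genes and markers of 9 cell types. The marker Adgre1 was not analysed here. Alternatives were DESeq2 1.42.0, RLE or total-count scaling, no filter, at least 10 counts in every mouse, limma-voom (limma 3.58.1), the first number of the label code as a covariate, and each mouse left out. Steps were tested on simulated data. RefSeq promoter windows (GRCm38.p6) were found for 9 of the 10 symbols (not Cebpd), exon overlaps came from GENCODE M21, and similar transcripts from BLAST 2.17.0. No protein sequence was used here.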

Additional observations from a re-analysis of the deposited data

How the results depend on the processing

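The number of the 10 genes called, 3, all of them higher, became 6, all higher, with DESeq2 and without the filter on low counts, and stayed at 3 with RLE factors, total counts, at least 10 counts in every mouse, limma-voom and the code covariate. Leaving out each mouse in turn gave 2 to 4. Genes called lower numbered 0 under every alternative run. Over the other lists the 11 calls became 17 with DESeq2, 19 without the filter, and 6 to 24 with a mouse left out, the highest without PBS 2-5 and the lowest without LLC1 1-2 or 1-3. Calls over all genes ran from 542 (without PBS 1-3) to 1950 (without PBS 1-1), against 1406. The log2 fold change of Bcl3, 0.03, turned to -0.018 with total counts, to -0.024 with the code covariate, and ran from -0.10 to 0.11 with a mouse left out, negative without LLC1 1-3 and without PBS 2-5. The causes were not tested. No paired analysis was possible because the groups share only 1 replicate code. The lowest transcripts, Lcn2, Bcl3, Il6ra and Socs3, had 35 to 137 counts a mouse, which limits their precision.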

Other observations

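Genes induced by glucocorticoids, which also act on several acute-phase genes, were counted as a further list. Of 11 tested, 2 were higher and none lower, with a median log2 fold change of 0.35. Klf15, a factor of amino acid and lipid metabolism, was 107 ± 6.46 CPM in LLC1 and 63.5 ± 9.93 CPM in PBS mice (SD, n = 4; log2 fold change 0.75, SE 0.10, FDR = 0.00167 in edgeR's test). Klf9 was 95.8 ± 6.75 against 75.8 ± 9.26 CPM (log2 fold change 0.34, SE 0.09, FDR = 0.0372 in edgeR's test). Fkbp5, a chaperone of the glucocorticoid receptor, had a log2 fold change of 0.66 and an FDR of 0.0739, and Zbtb16 one of 0.53 and an FDR of 0.0534, both in edgeR's test. Other genes of the list went the other way. Dusp1, Sgk1 and Nr3c1, which encodes the glucocorticoid receptor itself, had log2 fold changes of -0.42, -0.40 and -0.21. Their FDRs were 0.105, 0.225 and 0.111 in edgeR's test.

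Of 9 cardiomyocyte markers 1 was higher, Myh6, the adult myosin heavy chain (log2 fold change 0.24, SE 0.06, FDR = 0.0209 in edgeR's test). None of 7 smooth muscle or pericyte markers, 6 erythroid markers or 2 tested atrial markers was called, and none of 6 adipocyte markers passed the filter on low counts. The erythroid markers summed to between 1427 and 5174 CPM in LLC1 and between 1555 and 3095 CPM in PBS mice. The macrophage or monocyte marker that rose was Ly6c2 (log2 fold change 0.93, SE 0.13, FDR = 0.00187 in edgeR's test), while Lyz2, Mrc1 and Ccr2 fell.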
